A study of Mus musculus with 29 samples.

Results

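The genes described here are the nuclear-encoded subunits of oxidative phosphorylation, the respiratory chain and ATP synthase of the mitochondrion. They were chosen by name alone: gene symbols beginning Nduf followed by a, b, c, s or v and a digit, Sdha to Sdhd, and symbols beginning Uqcr, Cox4 to Cox8 or Atp5, leaving out pseudogenes marked -ps and the Ndufaf assembly factors. This rule found 80 of the 22327 symbols in the count table, of which 36 belong to complex I, 4 to complex II, 8 to complex III, 15 to complex IV and 17 to complex V. The filter on low counts kept 79 of them among 16074 genes tested, and Cox8b, with 42 counts over all 29 libraries, was left out. The names do not match the complexes exactly. Ndufa4 is counted with complex I although its protein sits in complex IV, Cox7a2l encodes a factor of respiratory supercomplexes, and the products of Atp5s and Atp5sl are not core parts of ATP synthase. Cox4i1 and Cox6a2 were not analysed here.

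Oxidative phosphorylation passes electrons from NADH through complex I, or from succinate through complex II, to ubiquinone, on to complex III and cytochrome c, and finally to oxygen at complex IV. Complexes I, III and IV pump protons, and complex V uses their return to make ATP. Most subunits are encoded in the nucleus, translated in the cytosol and imported, while a few hydrophobic core subunits are encoded in mitochondrial DNA. Microglia, the resident macrophages of the brain, use both this pathway and glycolysis, and the balance is known to shift with their activation.

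The RNA was bound to ribosomes tagged with eGFP-L10a and was pulled down with a GFP antibody (translating ribosome affinity purification) from the cortex of 29 mice, 1 library per mouse, all 6 months old. Per the labels' protocols it came from a supernatant cleared of mitochondria after detergent. Every mouse carried Cx3cr1CreErt2/+, a Cre made in microglia and other Cx3cr1-positive myeloid cells and active after tamoxifen, and every mouse received 6 doses of 100 mg/kg tamoxifen, so the control mice shared the Cre and the drug. The tag sits in Eef1a1 behind a loxP stop. TRAP mice (n = 5) carried Cx3cr1CreErt2/+;Eef1a1LSL.eGFPL10a/+ and received no other agent. 5xFAD TRAP mice (n = 4) had the same alleles with the 5xFAD amyloid transgenes and also received 1 µg/kg VEGF and 5 mg/kg ASV for 4 weeks. Eif2A mice (n = 4) carried Eif2s1A/A;Tg(Eif2s1), an allele of eIF2α that cannot be phosphorylated, and 5xFAD Eif2A mice (n = 3) carried it with 5xFAD; neither group received VEGF or ASV. Their sample labels list the tag, while the series text leaves it out. The iPKR mice carried Eef1a1LSL.NS3.eGFPL10a.iPKR/+, which carry, besides the tag, NS3 and iPKR, an inducible version of PKR, the kinase that phosphorylates eIF2α. VEGF was given with PEG:DMSO to 4 of them (iPKR vehicle) and with ASV to 5 (iPKR ASV), and 4 with the 5xFAD transgenes received VEGF and ASV (5xFAD iPKR). A contrast of 5xFAD TRAP with TRAP therefore also contrasts VEGF and ASV with neither, and the amyloid transgenes and the agents cannot be told apart there. The same holds for the iPKR construct and VEGF in the contrast of iPKR vehicle with TRAP.

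Library totals ran from 1662486 to 31998042 counts with a median of 6048524. In 8 of the 29 libraries, 2 of Eif2A, 4 of iPKR ASV and 2 of 5xFAD iPKR, Y-linked counts went against the labelled sex, and the member counts of contrasts that use these libraries are given with and without them. Summed markers of microglia (14 genes) made up 3.17% to 4.68% of counts in TRAP, 0.198% to 0.421% in iPKR vehicle, 0.0750% to 0.839% in iPKR ASV and 0.167% to 1.7% in 5xFAD iPKR. Summed neuron markers (11 genes) made up 0.107% to 0.130% in TRAP, 0.737% to 0.821% in iPKR vehicle, 0.619% to 2.35% in iPKR ASV and 0.521% to 3.71% in 5xFAD iPKR. All 14 microglial markers were lower and all 11 neuronal markers were higher in iPKR vehicle than in TRAP and in 5xFAD iPKR than in 5xFAD TRAP. The higher markers were not only neuronal. Of 9 astrocyte markers 8 were higher and 1 lower in the first contrast, and 8 were higher and 0 lower in the second. Of 10 oligodendrocyte markers 7 and then 10 were higher, with 0 lower in either. The label "microglia" is therefore not borne out by marker levels in the 3 iPKR groups as it is in the other 4. The 3 libraries with the most neuron marker counts were iPKR ASV 3 and 5xFAD iPKR 1 and 2, all of batch 1. In RNA pulled down from tissue, fewer cells of a type, less tagged RNA per cell and more untagged RNA carried along cannot be told apart.

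In TRAP microglia the subunits spanned a wide range of levels, which were not ranked against those of other genes. On a scale of counts per transcript length, scaled to the same total in every library, 69 of the 79 members with a known length stood above 100 and 6 stood below 10. The median level was 272 for complex I, 333 for complex II, 642 for complex III, 269 for complex IV and 443 for complex V. The highest levels per length were those of small subunits: Cox6a1 at 1472, Cox8a at 1338, Cox6b1 at 1205 and Cox6c at 1104 in complex IV, Ndufa4 at 1068, Atp5j at 964 and Atp5e at 951 in complex V, and Uqcrb at 862 in complex III. Atp5b, the catalytic beta subunit of ATP synthase, stood at 741. Ndufs1, the large iron-sulfur subunit of complex I, was the lowest of the core subunits at 15. The 6 members below 10 were isoforms known mainly from other tissues or conditions: Ndufa4l2, Cox4i2, Cox6b2, Cox7a1, Cox7b2 and Cox8b. Among these isoforms, 1 passed a test in any of the comparisons below (Cox6b2, the testis form of Cox6b1, in iPKR vehicle).

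As a share of all counts, the members together made up 1.47% ± 0.0831 (SD, n = 5) of counts in TRAP, 1.5% ± 0.175 (n = 4) in 5xFAD TRAP, 1.78% ± 0.0927 (n = 4) in Eif2A and 1.60% ± 0.0337 (n = 3) in 5xFAD Eif2A. The iPKR lines had 1.5% ± 0.422 (vehicle, n = 4), 1.59% ± 0.415 (ASV, n = 5) and 1.64% ± 0.0719 (5xFAD, n = 4). The total ran from 1.37% to 1.54% in TRAP and from 1.65% to 1.86% in Eif2A, without overlap, while iPKR vehicle spread from 0.908% to 1.91%. Complex I took 0.478% to 0.576% in TRAP and 0.624% to 0.703% in Eif2A, with no overlap. Complex IV took 0.219% to 0.288% in TRAP and 0.309% to 0.352% in Eif2A, again without overlap. In 5xFAD iPKR, complex IV took 0.0624% and 0.0630% in libraries 1 and 2 but 0.269% and 0.363% in libraries 3 and 4, while complex V took 0.756% and 0.864% against 0.479% and 0.454%. The pair with the least complex IV thus had the most complex V, and the pair was also the neuron-rich one. Because these shares are fractions of the same total, a higher share of 1 complex leaves less for every other gene.

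**Figure D1:**
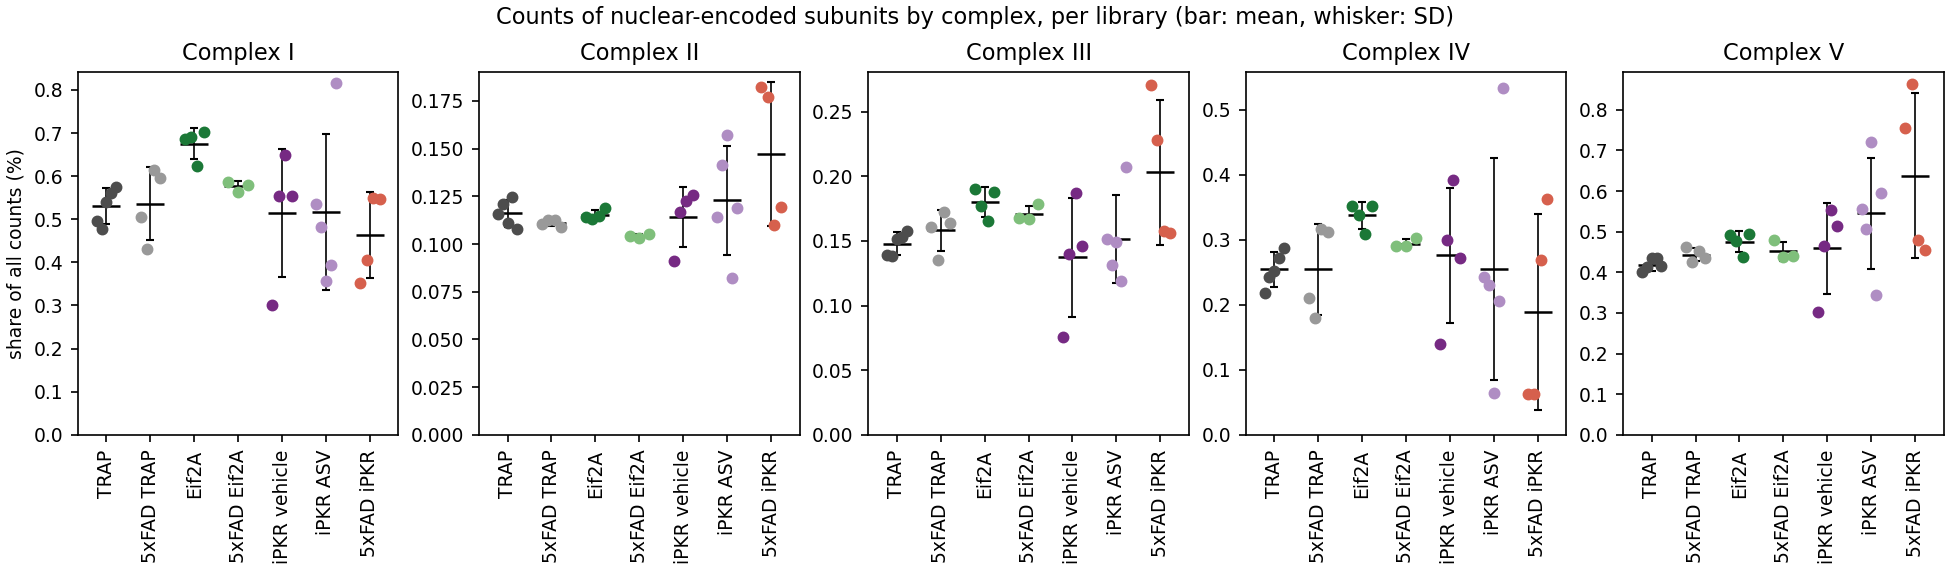
Share of all counts (%) taken by the nuclear-encoded subunits of each complex, 1 point per library, with group mean (bar) and SD (whisker). Eif2A libraries lie above TRAP for complexes I and IV without overlap (0.624% to 0.703% against 0.478% to 0.576% for complex I), and the iPKR groups spread widest, with complex IV from 0.0649% to 0.533% in iPKR ASV.

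Subunit mRNA was then compared between iPKR vehicle and TRAP, which asks how the kinase line without ASV differs from mice with the tag alone. Of the 79 members tested, 40 were lower and 3 were higher (43 called), and 33 of the lower side and 1 of the higher did not overlap between groups. Among all 16074 genes 54.1% were called, 28.6% higher and 25.4% lower, and 23.8% were lower and 24.8% higher without overlap. The median log2 fold change of the members was -0.67, against 0.17 over all genes tested. By complex, 20 of 36 complex I subunits were lower and 3 higher, and 3 of 4 (complex II), 5 of 8 (complex III), 6 of 14 (complex IV) and 6 of 17 (complex V) were lower with none higher.

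In complex I, Ndufb4, an accessory subunit of the membrane arm, stood at 99.6, 101, 120, 119 and 156 TMM-scaled CPM (counts scaled to a common library size) in TRAP and at 25.4, 41.5, 69.8 and 58.5 in iPKR vehicle. Every iPKR vehicle library lay below every TRAP library, a log2 fold change of -1.59 ± 0.24 (SE; adjusted p = 3.14e-06, edgeR). Ndufv1, which holds the flavin that accepts electrons from NADH, went the other way, from 129, 119, 144, 141 and 135 CPM in TRAP to 138, 263, 273 and 262 in iPKR vehicle. Library 1 of iPKR vehicle lay inside the TRAP range and the other 3 lay above it (1.09 ± 0.28, adjusted p = 0.00194). Ndufs1 rose from 20.7, 22.8, 27.2, 26.2 and 20.6 CPM to 31.5, 39.9, 49.2 and 47.8 without overlap (1.35 ± 0.41, adjusted p = 0.00666). Ndufa10, an accessory subunit of the matrix side, rose by a log2 fold change of 0.58 ± 0.23 (adjusted p = 0.0390). That call was lost in 6 of 9 fits that left out 1 library (any of TRAP 1, 2 or 3 or iPKR vehicle 2, 3 or 4), and without iPKR vehicle 3 the value was 0.31 (adjusted p = 0.276).

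In complex II, which is also succinate dehydrogenase of the citric acid cycle, the catalytic flavoprotein and its partners parted. The membrane anchor Sdhd went from 309, 348, 363, 313 and 334 CPM in TRAP to 119, 160, 162 and 184 in iPKR vehicle. No library overlapped, and the log2 fold change was -1.12 ± 0.19 (adjusted p = 1.43e-05). Sdhb, the iron-sulfur subunit, fell by 0.54 ± 0.19 in log2 units (adjusted p = 0.0158), and without iPKR vehicle 1 it was at -0.32 and did not pass (adjusted p = 0.116). Sdha, the flavoprotein, stood at 364, 425, 352, 453 and 324 CPM in TRAP and at 411, 541, 436 and 452 in iPKR vehicle. Its groups overlapped and its log2 fold change of 0.58 ± 0.27 did not pass (adjusted p = 0.0643).

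In complex III, Uqcrb, a small subunit that binds ubiquinone, had the smallest p of all members. It went from 250, 261, 293, 292 and 306 CPM in TRAP to 43.2, 96.0, 109 and 105 in iPKR vehicle, that is from a mean of 280 ± 23.7 (SD, n = 5) to 88.1 ± 30.4 (n = 4). The groups lay far apart, with a log2 fold change of -1.94 ± 0.28 (adjusted p = 1.69e-06). The core subunit Uqcrc1 (0.51) and the Rieske iron-sulfur protein Uqcrfs1 (0.33) did not pass. In complex IV, Cox6b1, which bridges the monomers of the dimer, went from 374, 423, 504, 468 and 499 CPM to 114, 244, 313 and 202, without overlap (-1.36 ± 0.33, adjusted p = 0.000961). Cox6c fell by 0.86 ± 0.30 (adjusted p = 0.0186), a call lost without iPKR vehicle 1 (adjusted p = 0.0825) or 4 (adjusted p = 0.0662), and Cox5a, a subunit of the matrix side, was at -0.28 and did not pass.

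In complex V, Atp5e, the epsilon subunit of the central stalk, went from 217, 211, 262, 267 and 261 CPM in TRAP to 46.0, 92.0, 87.5 and 68.0 in iPKR vehicle. The groups did not overlap (-1.93 ± 0.38, adjusted p = 9.80e-05). Atp5g2, a gene for the membrane ring subunit c, went from 45.3, 37.5, 46.0, 49.3 and 61.5 CPM to 11.2, 17.9, 29.2 and 23.7, also without overlap (-1.52 ± 0.22, adjusted p = 2.05e-06). Atp5b and Atp5a1, the catalytic beta and alpha subunits, were at 0.74 and 0.38 and did not pass. Atpif1, the inhibitor of ATP synthase, whose symbol the naming rule does not take, fell by 0.96 ± 0.28 in log2 units (adjusted p = 0.00583).

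The split of these calls moved with the scaling. With counts scaled to library totals in place of TMM factors, 9 members were higher and 21 lower (55.1% of all genes called), and the median over all genes tested moved from 0.17 to 0.50 while that of the members moved from -0.67 to -0.34. Leaving out 1 library at a time gave 34 to 51 called members; 27 of the 40 lower and 2 of the 3 higher were called in every such fit.

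The promoters of members that moved apart are shown because their common regulators are part of the textbook account of this gene family: NRF1 and ETS-family factors are known to bind many of these promoters. The windows are the 250 bases before the RefSeq start (GRCm38.p6), printed 5′ to 3′ on the gene's strand, which is the minus strand for all 3, with capitals marking matches to a half-site of NRF1. They belong to the 2 lower-called members with the smallest p that had a window, and to the higher-called member with the smallest p. The Atp5g2 window is chr15:102671048-102671297, inside the longer gene span of GENCODE, the Ndufb4 window is chr16:37654369-37654618 and the Ndufv1 window is chr19:4012756-4013005.
Atp5g2: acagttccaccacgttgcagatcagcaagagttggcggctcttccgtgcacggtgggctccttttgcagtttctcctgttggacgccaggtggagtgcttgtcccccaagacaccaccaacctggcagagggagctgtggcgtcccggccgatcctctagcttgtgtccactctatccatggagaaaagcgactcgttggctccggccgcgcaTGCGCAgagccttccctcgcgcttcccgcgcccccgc
Ndufb4: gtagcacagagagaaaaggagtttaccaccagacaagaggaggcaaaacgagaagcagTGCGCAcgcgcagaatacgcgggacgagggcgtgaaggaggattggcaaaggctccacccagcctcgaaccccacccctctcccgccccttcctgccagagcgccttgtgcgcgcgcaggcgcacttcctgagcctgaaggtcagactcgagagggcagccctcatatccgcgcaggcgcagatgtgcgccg
Ndufv1: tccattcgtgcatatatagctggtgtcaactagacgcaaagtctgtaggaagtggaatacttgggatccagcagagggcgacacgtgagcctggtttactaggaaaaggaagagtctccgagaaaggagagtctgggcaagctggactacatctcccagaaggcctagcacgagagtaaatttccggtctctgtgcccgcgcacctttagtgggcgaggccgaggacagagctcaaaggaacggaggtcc
The NRF1 half-site searched was TGCGCA, which reads the same on both strands. It was chosen after longer NRF1 and YY1 motifs had been searched in these windows, whose matches are not reported here. It matched in 1 place in Atp5g2, in 1 place in Ndufb4 and nowhere in Ndufv1. Over the 65 members with a window, 13 (20%) held it, against 7.36% of 27025 symbols. The ETS motif CCGGAAG, searched on both strands, was in 12 members (18.5%) and 7.83% of all symbols. A match is a run of letters and not a measured binding site.

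The same construct with ASV and 5xFAD was compared with 5xFAD TRAP, which shares the amyloid transgenes and both agents. Of 79 members, 41 were lower and 6 higher, where 47.9% of all genes were called, 25% higher and 23% lower. Without overlap, 26 were lower and 3 higher, against 22.1% and 19.9% of all genes. The median log2 fold change was -0.78, against 0.21 over all genes. Complex I had 20 lower and 3 higher, complex II 2 and 1, complex III 5 and 1, complex IV 7 and 0, and complex V 7 and 1. The lower calls in both contrasts, which have no library in common, numbered 35, or 87.5% of the 40 and 85.4% of the 41. Over all genes 3132 were lower in both, or 76.6% and 84.9% of the genes lower in each, so the members' share of the second was near that of all genes. The 3 higher members of iPKR vehicle were all higher here too, joined by Uqcrc1, Sdha and Atp5b. The calls in common were thus 100% of the 3 and 50% of the 6. Over all genes 3298 were higher in both, or 71.6% and 82.1% of the genes higher in each.

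Among the lower members, Uqcrb went from 223, 206, 425 and 375 CPM in 5xFAD TRAP to 52.3, 39.7, 143 and 155 in 5xFAD iPKR, without overlap (-1.78 ± 0.29, adjusted p = 1.97e-05). Ndufa7, an accessory subunit of complex I, went from 173, 155, 268 and 256 CPM to 30.2, 14.8, 94.4 and 111, also without overlap (-1.98 ± 0.34, adjusted p = 3.02e-05). Ndufc2, of the membrane arm, fell by 1.36 ± 0.23 in log2 units (adjusted p = 3.1e-05) and Ndufb4 by 1.39 ± 0.25 (adjusted p = 5.38e-05). Libraries 1 and 2 were the lowest of the 5xFAD iPKR group for Uqcrb, Ndufa7 and Ndufb4, and libraries 3 and 4 still lay below every 5xFAD TRAP library.

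The higher members behaved differently. Ndufv1 went from 181, 167, 128 and 127 CPM in 5xFAD TRAP to 534, 640, 223 and 187 in 5xFAD iPKR, without overlap (1.18 ± 0.30, adjusted p = 0.00196). Uqcrc1 stood at 420, 383, 254 and 297 CPM in 5xFAD TRAP and at 1961, 1409, 363 and 328 in 5xFAD iPKR (1.23 ± 0.36, adjusted p = 0.00676). Atp5b stood at 1264, 1217, 897 and 808 CPM and at 3757, 4321, 989 and 870 (0.91 ± 0.34, adjusted p = 0.0286). For Uqcrc1 and Atp5b, libraries 1 and 2 of 5xFAD iPKR were far above 5xFAD TRAP and libraries 3 and 4 lay within its range. Sdha followed the same form, with 431, 445, 339 and 345 CPM against 1286, 1254, 377 and 403 (0.80 ± 0.28, adjusted p = 0.0223). Without 5xFAD iPKR 2 alone, Uqcrc1 (0.93, adjusted p = 0.0559), Atp5b (0.41, adjusted p = 0.318) and Sdha (0.51, adjusted p = 0.164) did not pass. The Atp5b call was also lost without 5xFAD TRAP 1, 2 or 3 or 5xFAD iPKR 1, and the Sdha call without 5xFAD TRAP 1 or 2 or 5xFAD iPKR 1. Without the 3 neuron-rich libraries edgeR called 32 members lower and 0 higher, with unadjusted p under 0.05 for 38, a median of -0.50 and 37.6% of all genes called. These 3 libraries are among the 8 against their labelled sex. Leaving out the 8 therefore takes the same libraries, 5xFAD iPKR 1 and 2, from this contrast and is not a separate check. Without the 8 libraries against their labelled sex, 30 were lower and 0 higher (38% of genes called; unadjusted p under 0.05 for 39), and in batch 1 alone 46 were lower and 10 higher (42.4%).

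Over the whole series, 10 members (12.7%) had their 3 highest libraries in the 3 neuron-rich ones, as did 7.81% of all genes tested, among them Ndufv1, Ndufs1 and Ndufa10 of complex I, Sdha, Uqcrc1, Uqcrc2 and Uqcrfs1 of complexes II and III, and Atp5a1 and Atp5b. The same 3 libraries were the 3 lowest for 29 members (36.7%) and for 5.00% of all genes, among them Cox5b, Cox6a1, Cox6b1, Cox6c, Cox7a2, Cox7b, Cox7c and Cox8a of complex IV and Atp5e, Atp5j and Atp5k of complex V. All 3 libraries are of batch 1 and had Y-linked counts against the labelled sex. The markers of neurons and microglia and the transcript length trend also moved with this order. The part of each of these in it was not tested. With replicate number as a block, which pairs these libraries by batch, 45 members were called in place of 47 (45.2% of all genes). With counts scaled to library totals 9 were higher and 27 lower (47% of all genes called), and the median over all genes was then 0.56 and that of the members -0.43. Leaving out 1 library at a time gave 36 to 55; 34 of the 41 lower members and 1 of the 6 higher ones (Ndufv1) were called in every such fit.

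**Figure D2:**
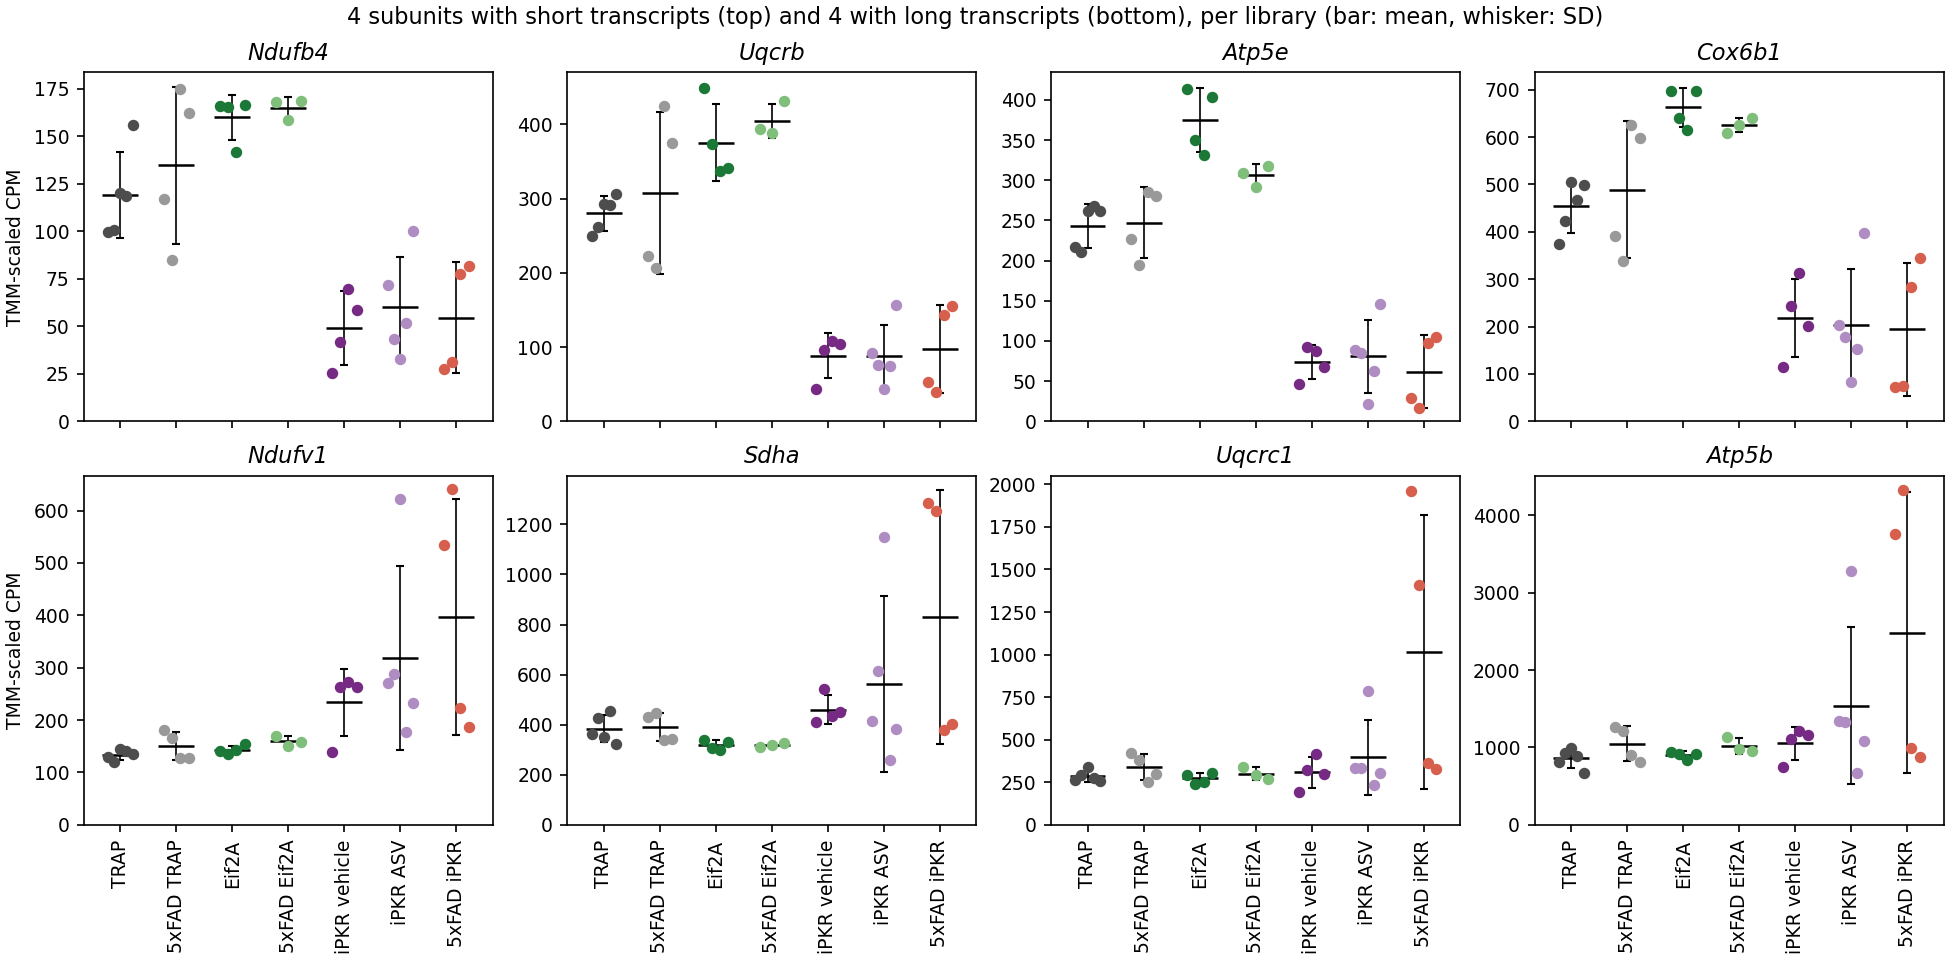
TMM-scaled CPM for 4 subunits with short transcripts (top) and 4 with long transcripts (bottom), 1 point per library, with group mean (bar) and SD (whisker). The short ones are lower in all 3 iPKR groups, and the long ones are highest in iPKR ASV 3 and 5xFAD iPKR 1 and 2, where Atp5b reached 3282, 3757 and 4321 CPM.

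Core subunits have longer coding sequences than most accessory ones, and the changes of the members followed length. In iPKR vehicle against TRAP the 57 members with under 600 coding bases had a median log2 fold change of -0.81, with 34 lower and 0 higher. The 10 members of 600 to under 1000 bases had a median of -0.38, and the 11 of 1000 or more had 0.51, with 3 higher and 2 lower. In 5xFAD iPKR against 5xFAD TRAP the 3 medians were -1.06, -0.29 and 0.76, and all 6 higher calls fell in the class of 1000 or more. Spearman's rho between coding length and log2 fold change over 78 members was 0.44 and 0.62 in these contrasts, across genes that share the same libraries and are not independent replicates.

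Short transcripts outside the pathway did likewise. Among the other 255 protein-coding genes with transcripts under 700 bases, 66.7% were called in iPKR vehicle against TRAP and 52.2% were lower, with a median of -1.21. The 36 members of that length had 22 called in either direction and a median of -0.95. Ribosomal protein genes were not taken out of the other genes, and 70 of 77 cytosolic ones were lower (median -1.68). In each library a curve against transcript length was fitted to each gene's log2 level minus its mean over all libraries, the iPKR ones included. At 0.6 kb its values, in log2 units relative to that mean, were 0.30 to 0.67 in TRAP and 0.17 to 0.82 in 5xFAD TRAP. They were 0.70 to 0.98 in Eif2A and 0.85 to 0.88 in 5xFAD Eif2A. The values were -1.22 to -0.29 in iPKR vehicle, -1.84 to 0.17 in iPKR ASV and -1.98 to 0.05 in 5xFAD iPKR. The members and the ribosomal proteins were among the protein-coding genes fitted. An offset from the curve therefore also takes out part of any change that they share, and is not an independent correction for length. With that curve as an offset in the model, an alternative added after seeing the data, the balance of calls turned. In iPKR vehicle against TRAP 34 members were higher and 10 lower (median 0.38, 0.18 over all genes, of which 52.9% were called), and in 5xFAD iPKR against 5xFAD TRAP 28 were higher and 7 lower (median 0.37, 0.27 over all genes, of which 45.6% were called).

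Some members kept their direction under the offset. Sdhc, a membrane anchor of complex II, was at -1.31 (adjusted p = 9.41e-06) in iPKR vehicle and -1.10 (adjusted p = 0.000231) in 5xFAD iPKR, against -1.12 and -0.96 without it. Ndufb4 was at -0.73 and -0.48, Ndufa7 at -0.56 and -0.59, and Atp5e at -0.45 and -0.56, each past the threshold. Ndufv1 stayed higher at 1.43 and 1.63, and Ndufs1 at 1.37 and 1.37. Cox5a was at 0.93 and 1.13 with the offset, higher in both. Sdhc was chosen after its values were seen. Whether length, cell makeup or the construct moved these mRNAs was not tested, and the neuron and microglia marker shares above moved with all of these contrasts.

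**Figure D3:**
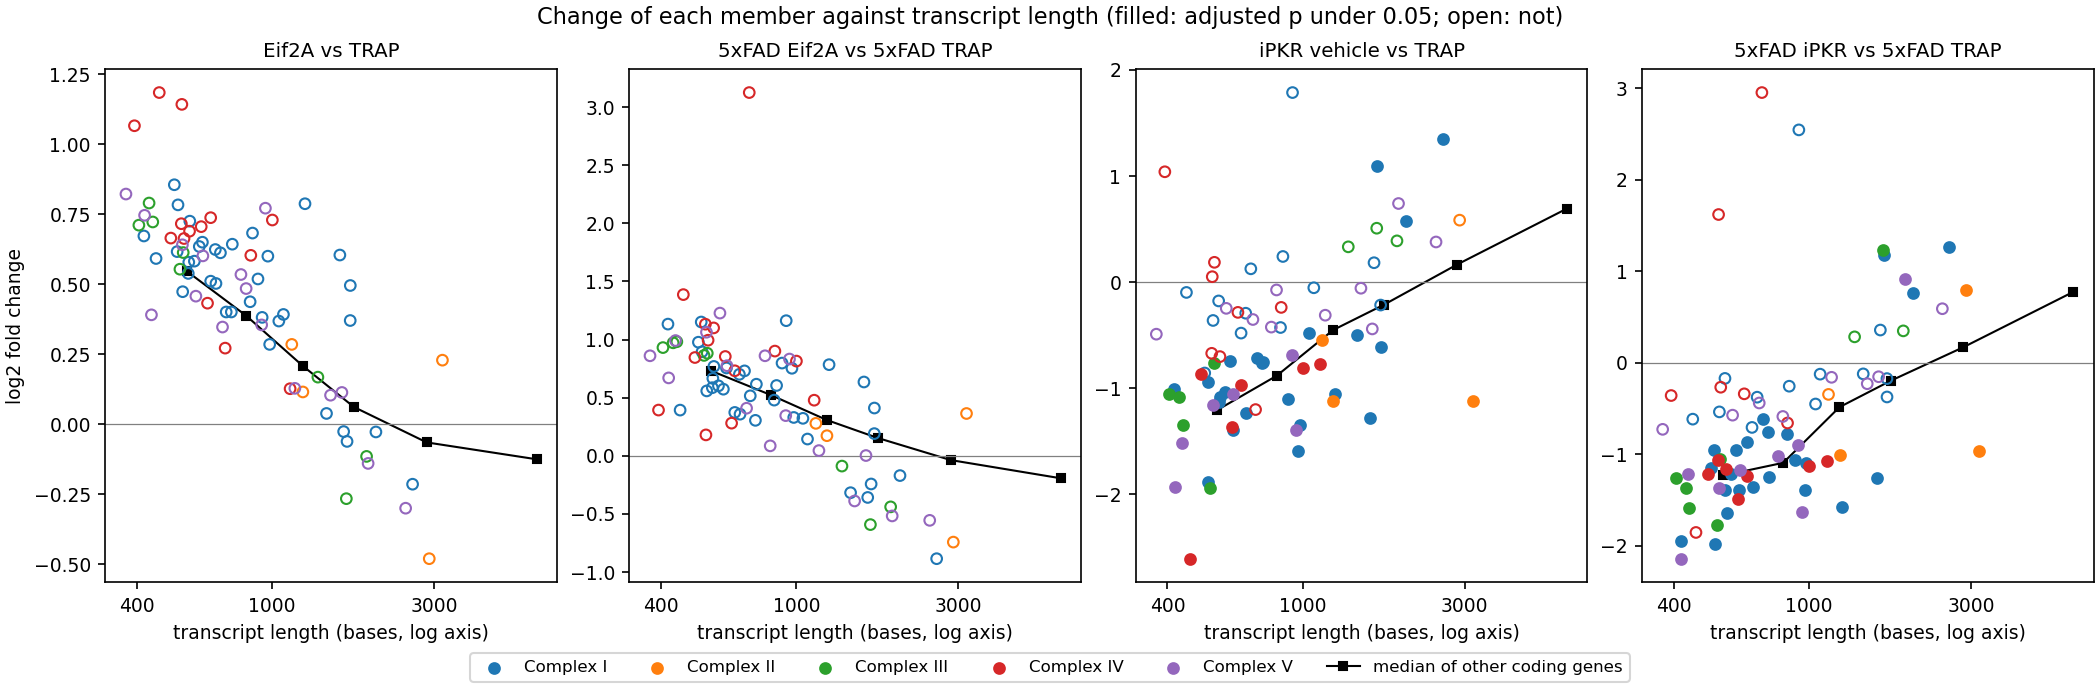
Log2 fold change of each member (coloured by complex; filled where adjusted p was under 0.05) against transcript length in bases (log axis) in 4 contrasts, with the median of other coding genes per length class (black squares). Short members are above 0 in the Eif2A contrasts and mostly below 0 in the iPKR contrasts. The medians of other short genes, ribosomal protein genes included, lie on the same side.

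Eif2A was compared with TRAP to see how microglia whose eIF2α cannot be phosphorylated differ. With all 29 libraries in the fit, edgeR called 0 members and 0% of all genes. Unadjusted p was under 0.05 for 37 members and for 912 of 16074 genes, and DESeq2 called 1 member. The members' values still lay to 1 side: 69 of 79 fold changes were above 0 with a median of 0.53, against 0.00 over all genes, and 40 members were higher without overlap and 0 lower, where 2.86% and 1.04% of all genes were. The medians were 0.53 in complex I, 0.17 in complex II, 0.58 in complex III, 0.70 in complex IV and 0.39 in complex V.

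The call depended on which libraries entered the fit. A fit on only the Eif2A and TRAP libraries called 0 of 76 members and 0% of genes, with unadjusted p under 0.05 for 54 members. Without the libraries against their labelled sex the fit of all groups also called 0 members (0.00574% of genes), with unadjusted p under 0.05 for 46. The fit on the 4 groups without the iPKR construct called 39 of 75 members higher and 0 lower, where 1.97% of 13800 genes were called. By complex these were 21 of 35 in complex I, 0 of 4 in complex II, 4 of 8 in complex III, 8 of 11 in complex IV and 6 of 17 in complex V. Cox7a2, an accessory subunit of complex IV, stood at 246, 246, 290, 291 and 314 CPM in TRAP and at 473, 394, 398 and 427 in Eif2A. Every Eif2A library was above every TRAP library (log2 fold change 0.64, adjusted p = 0.00844). Ndufa7 went from 154, 164, 218, 196 and 252 CPM to 298, 300, 278 and 328, also without overlap (0.69, adjusted p = 0.00844). Uqcr10 (0.67) and Atp5e (0.63) were higher with adjusted p = 0.0103 each. These 4 were chosen from this fit after their values were seen. The longer catalytic and core subunits Sdha (-0.34, adjusted p = 0.0637), Uqcrc1 (-0.21) and Atp5a1 (-0.19) did not pass.

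The count in this fit was 26 (1.36% of all genes) without the libraries against their labelled sex and 11 (0.281%) in batch 1 alone, the batch that held every Eif2A mouse. Length again went with the calls. Among members under 700 bases 25 of 34 were higher, against 28.3% of 219 other coding genes, from which ribosomal protein genes were not taken out. From 700 to under 1000 bases 9 of 15 were higher, against 12.5% of 448. With the length offset 0 members and 0.058% of genes were called in this fit, where unadjusted p was under 0.05 for 15, and the median was 0.05. Under the fit of all libraries the 57 members with under 600 coding bases were all above 0 (median 0.61), the 10 of 600 to under 1000 had a median of 0.28 and the 11 of 1000 or more one of -0.12, with a rho of -0.86 over 78 members.

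5xFAD Eif2A was compared with 5xFAD TRAP, a contrast that also sets mice without VEGF and ASV against mice with both. With all libraries edgeR called 0 members, where 0.168% of all genes were called. Unadjusted p was under 0.05 for 31 members and for 1735 of 16074 genes, and DESeq2 called 4 members. The median log2 fold change was 0.60 (0.03 over all genes), 67 members were above 0, and 26 were higher and 1 lower without overlap (7.97% and 5.02% of all genes). The smallest p was that of Atp5g1, another subunit c gene, at 86.1, 80.5, 181 and 178 CPM in 5xFAD TRAP and 207, 187 and 222 in 5xFAD Eif2A. Its groups did not overlap, and 1.23 ± 0.28 gave an adjusted p of 0.0741. Libraries 1 and 2 of 5xFAD TRAP, of batch 1, were the low ones. In the 4-group fit 32 members were higher and 1, Sdha at -0.44 (adjusted p = 0.0355), was lower, where 4.25% of genes were called. With the length offset 2 were higher and 2 lower (1.74%).

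The 5xFAD contrasts themselves called no members when all libraries were fitted. For 5xFAD TRAP against TRAP the median was -0.12 and 0.79% of all genes were called. There edgeR gave unadjusted p under 0.05 for 2 members and for 1645 of 16074 genes, and DESeq2 called 0 members. For 5xFAD Eif2A against Eif2A the median was -0.03 and 3.1% of all genes were called. Unadjusted p was under 0.05 for 4 members and for 2358 of 16074 genes, and DESeq2 called 0 members. For 5xFAD iPKR against iPKR ASV the median was -0.22 and 1.72% of all genes were called. There 5 members and 2144 of 16074 genes had unadjusted p under 0.05, and DESeq2 called 1 member. Uqcrc1 came closest at 1.21 ± 0.33 (adjusted p = 0.0516), with 331, 333, 785, 234 and 305 CPM in iPKR ASV and 1961, 1409, 363 and 328 in 5xFAD iPKR. Its groups overlapped, and libraries 1 and 2 of 5xFAD iPKR and library 3 of iPKR ASV were the 3 highest.

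Ndufa1, a small X-linked subunit of complex I, was chosen after its values were seen because it moved the same way in both amyloid contrasts outside the iPKR line. It stood at 151, 171, 176, 200 and 207 CPM in TRAP and at 277, 227, 444 and 367 in 5xFAD TRAP. It stood at 296, 238, 234 and 284 in Eif2A and at 535, 508 and 521 in 5xFAD Eif2A. The groups did not overlap in either contrast. With all libraries fitted the log2 fold changes were 0.55 ± 0.36 (adjusted p = 0.632) and 1.02 ± 0.40 (adjusted p = 0.191). In the 4-group fit they were 0.70 (adjusted p = 0.00149) and 1.01 (adjusted p = 1.93e-05). That fit called 5 members in 5xFAD TRAP against TRAP, all higher (6.94% of genes called): Ndufa1, the core subunits Uqcrc1 (0.40) and Uqcrc2 (0.39) of complex III, and the catalytic Atp5a1 (0.39) and Atp5b (0.45). It called 3 higher in 5xFAD Eif2A against Eif2A (Ndufa1, Atp5g1 at 0.63 and Atp5l) and 1 lower (Ndufa5), where 15.1% of genes were called. Neuron marker counts were 0.424% and 0.246% in 5xFAD TRAP libraries 1 and 2, above the TRAP range, and their part in the calls of Atp5a1, Atp5b, Uqcrc1 and Uqcrc2 was not tested. Sex bears on an X-linked gene. In the 4 groups only Eif2A 3 and 4 went against their labelled sex. Without them the 4-group fit had Ndufa1 at 0.69 (adjusted p = 0.00287) in 5xFAD TRAP against TRAP. That contrast kept all its mice, so the value is no check on sex there. In 5xFAD Eif2A against Eif2A, Ndufa1 was at 0.98 (adjusted p = 0.000734), with Eif2A 1 and 2 alone left in the Eif2A group. The same fit called 6 members in the first contrast (7.44% of genes) and 2 in the second (10.3%).

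No member passed the test of a difference between 5xFAD effects. The 5xFAD effect in Eif2A minus that in TRAP called 0 members (0.00622% of genes), with a median of 0.05. There edgeR gave unadjusted p under 0.05 for 1 member and for 686 of 16074 genes, and DESeq2 called 0 members. The 5xFAD effect in iPKR ASV minus that in TRAP called 0 members (0.0373% of genes), with a median of -0.11. Unadjusted p was under 0.05 for 0 members and for 1084 of 16074 genes, and DESeq2 called 0 members. ASV in iPKR mice, the drug contrast, called 0 members against vehicle (0.423% of all genes), with a median of -0.05. Unadjusted p was under 0.05 for 1 member and for 2631 of 16074 genes, and the DESeq2 count was 0. Uqcrb stood at 92.4, 75.5, 43.6, 74.2 and 156 CPM in iPKR ASV, around the 43.2 to 109 of iPKR vehicle. Leaving out the libraries against their labelled sex leaves 1 iPKR ASV library, assumed to vary like the other groups, and 2 of 5xFAD iPKR. The counts of called members in the contrasts that follow stayed at 0 then. The median was -0.07 for 5xFAD iPKR against iPKR ASV (1.52% of genes called, unadjusted p under 0.05 for 2 members) and -0.07 for 5xFAD Eif2A against Eif2A (3.65%, 3 members). It was 0.09 for ASV against vehicle (0.293%, 3 members), opposite in sign to the value from all libraries. For the differences of effects it was -0.04 in Eif2A (0.0517%, 2 members), also opposite in sign, and -0.01 in iPKR ASV (1.14%, 2 members). These missed thresholds do not show that the groups were alike.

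**Figure D4:**
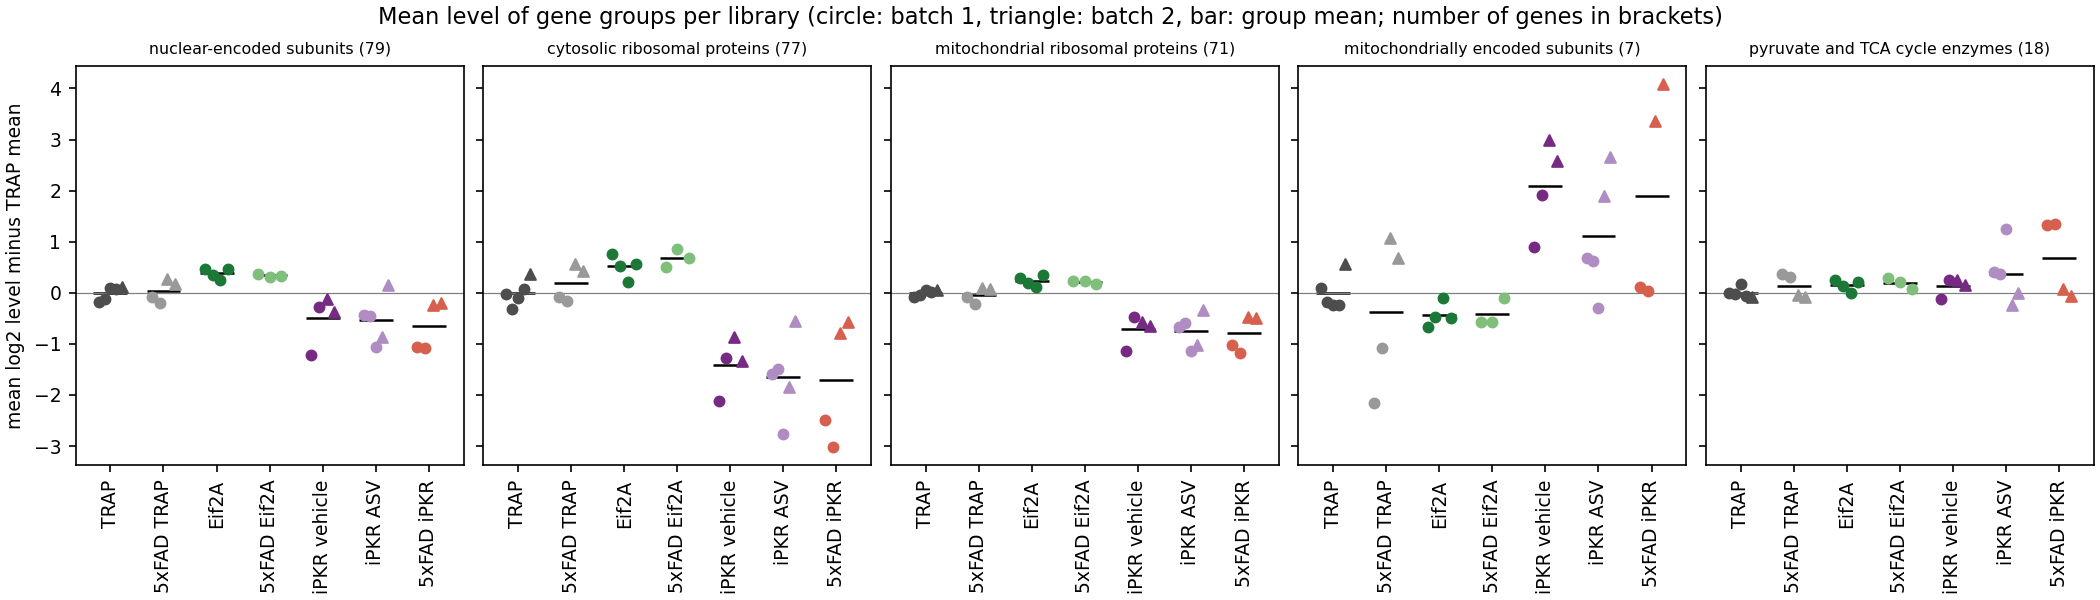
Mean log2 level of 5 gene groups per library minus the TRAP mean (circle, batch 1; triangle, batch 2; bar, group mean). The nuclear-encoded subunits and both ribosomal protein groups lie above TRAP in Eif2A and mostly below it in the iPKR groups, where mitochondrially encoded subunits and citric acid cycle enzymes lie mostly above.

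The rest of the pathway was read from lists chosen for function. Beside the list counts, 28.6% of all genes were higher and 25.4% lower in iPKR vehicle against TRAP. In 5xFAD iPKR against 5xFAD TRAP 25% were higher and 23% lower. In iPKR vehicle against TRAP, 6 of the 7 testable mitochondrially encoded subunits were higher and none lower, with a median of 1.39; mt-Nd6 was at 1.90 ± 0.40 (adjusted p = 0.000262) and mt-Nd4, like it a complex I core subunit, at 1.27 ± 0.33 (adjusted p = 0.00214). In 5xFAD iPKR against 5xFAD TRAP all 7 were higher, with a median of 2.55. These mRNAs are translated inside mitochondria, and the supernatant had been cleared of mitochondria. Their counts are therefore not read as RNA of tagged ribosomes, and how they entered the pulldown was not tested. The members' medians of -0.67 and -0.78 had the opposite sign without the length offset and the same sign with it (0.38 and 0.37). Of the 18 pyruvate and citric acid cycle enzymes, 10 were higher and 4 lower in the first contrast and 10 and 3 in the second. Sucla2, the ATP-forming succinyl-CoA ligase subunit, rose by 1.34 ± 0.29 and 1.41 ± 0.31, while its GTP-forming counterpart Suclg2 fell by 2.15 ± 0.35 and 1.81 ± 0.37.

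Isoform pairs parted among the carriers as well. Slc25a4, the ADP/ATP carrier of heart, muscle and brain, was at 1.31 ± 0.24 and 1.11 ± 0.26, and Slc25a5, its broadly expressed relative, at -1.39 ± 0.25 and -0.81 ± 0.26. Cycs, cytochrome c, fell by 0.82 ± 0.24 and 0.99 ± 0.25, and Gpd2, which feeds electrons from glycerol 3-phosphate, rose by 2.36 ± 0.40 and 2.29 ± 0.44. Of 12 regulators of mitochondrial biogenesis, 2 were higher and 3 lower, then 2 and 4. The coactivators Ppargc1a (2.59 ± 0.37 and 2.63 ± 0.43) and Ppargc1b were higher, and Gabpa (-2.29 ± 0.38 and -1.59 ± 0.37), the DNA-binding subunit of an ETS-family factor, and Nrf1 (-1.03 ± 0.22 and -1.15 ± 0.23) were lower. Of 41 assembly factors, 6 were higher and 7 lower, then 4 and 13. In both contrasts the calls in either direction were a smaller share than that of all genes (54.1% and 47.9%). Lower calls alone were a smaller share than that of all genes (25.4%) in the first contrast. In the second they were a larger one (23% of all genes). Ttc19, needed for complex III, was at 2.00 ± 0.23 and 1.96 ± 0.25.

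Of 71 mitochondrial ribosomal proteins 38 were lower and 1 higher in iPKR vehicle against TRAP (median -0.67), and of 77 cytosolic ones 70 were lower and 0 higher (median -1.68). In 5xFAD iPKR against 5xFAD TRAP the counts were 38 lower and 2 higher (median -0.72), and 73 lower and 0 higher (median -1.76). In Eif2A against TRAP these 2 lists had medians of 0.31 and 0.71 with 0 calls by edgeR, where unadjusted p was under 0.05 for 8 and 47 genes. The members' medians of -0.67 and -0.78 lay nearer to those of the mitochondrial ribosome than to those of the cytosolic one.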

How the data were processed

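Raw counts per gene symbol and RPKM values were deposited for the 29 libraries. Per the submitters' processing notes, the authors used Trim Galore, HISAT2 2.2.1, featureCounts 2.0.3 and mm10 to make the counts. The annotation and strandedness are not given in the sources used here. The RPKM values the authors deposited divide by a length within 0.1% of the whole gene span for 86.3% of symbols found in GENCODE, so RPKM was used only for that check. Fold changes came from the counts with edgeR 4.0.16 in R 4.3.3: filterByExpr (minimum count 10, minimum total 15), TMM factors, 1 model of group, batch and labelled sex on all libraries (20 residual degrees of freedom), a robust quasi-likelihood F-test, two-sided, and Benjamini-Hochberg adjustment over 16074 genes at 0.05, the threshold behind every call. CPM values are TMM-scaled, and levels per length use GENCODE M21 transcripts.

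Members and lists were chosen with earlier results of these data known. The members named were fixed core subunits and isoforms, and up to 4 called members per contrast and direction with the smallest p, with up to 2 per pathway list; exceptions are stated, and 1 fixed member is not reported here. Replicate numbers were taken to pair libraries in 5xFAD iPKR against 5xFAD TRAP, where same-numbered deviations correlated at 0.113 to 0.216 in all 4 pairs; numbers 1 and 2 are batch 1 there and 3 and 4 batch 2. Nothing beyond 1 mouse per library describes the replicates. BLAST 2.17.0 found near-identical copies (97% over 200 bases) for 18 members, 12 with a copy in the table, among them Uqcrb, Atp5g1, Atp5g2 and Atp5l; reads could be split between these, and Atp5o spans 2 gene models, so their levels are uncertain. Reads carry no molecular identifiers. The procedure was tested on simulated counts. DESeq2 1.42.0 and the other alternatives are in the closing section.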

Additional observations from a re-analysis of the deposited data

Results flagged for a closer look

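Within-group gaps were tested for 120 groups of 4 or 5 libraries, over the shares of counts (all members and each complex) and over named members. Of these, 7 had a library far from the others, near the 1 in 20 that chance gives. Tests of members in the same libraries are not independent. Library iPKR ASV 3 was the high one in 5 of them, at 2540 CPM for Atp5a1 (416 to 917 in the other 4), 3282 for Atp5b (667 to 1342), 244 for Ndufs1 (38.3 to 71.9), 622 for Ndufv1 (177 to 289) and 785 for Uqcrc1 (234 to 333). This library also had 2.35% of its counts in neuron markers. Library Eif2A 3 was low for Ndufb4, at 142 CPM (166 in the other 3). Library iPKR vehicle 1 was low for Ndufv1, at 138 CPM (262 to 273).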

How the results depend on the processing

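In both iPKR contrasts the calls in either direction stayed within 1.5 times their number under RLE size factors, no low-count filter, no sex term and DESeq2. The same held with 1 replicate left out, where 34 to 51 and 36 to 55 were called (27 to 49 and 35 to 47 lower). The lower calls alone moved further with counts scaled to library totals and with the length offset, as given above. Counts in either direction moved further in the cases below, save that of Eif2A against TRAP with only the groups compared, which stayed at 0. The cause was not tested. The share of all genes called is given in brackets. In 5xFAD TRAP against TRAP 2 members were called with only the groups compared (6.12%), 5 with the 4 groups without iPKR (6.94%), 6 in these groups without the libraries against their labelled sex (7.44%), 6 in their batch 1 (6.28%), 1 with the length offset (0.939%) and 4 with this offset in the 4 groups (7.32%). In 5xFAD Eif2A against Eif2A the same settings gave 5 (12.9%), 4 (15.1%), 2 (10.3%), 7 (13.6%), 2 (3.42%) and 7 (15%). In 5xFAD iPKR against iPKR ASV batch 1 alone gave 4 (3%), no sex term 1 (2.39%), DESeq2 1 (4.55%), sex from Y-linked counts 1 (2.05%), and leaving out 1 replicate 0 to 1 (1 without iPKR ASV 3, 5xFAD iPKR 3 or 5xFAD iPKR 4). In Eif2A against TRAP only the groups compared gave 0 (0%), the 4 groups 39 (1.97%), these without the libraries against their labelled sex 26 (1.36%), in batch 1 alone 11 (0.281%), and DESeq2 1 (0.255%). In 5xFAD Eif2A against 5xFAD TRAP only the groups compared gave 43 (9.06%), the 4 groups 33 (4.25%), these without the libraries against their labelled sex 31 (4.42%), in batch 1 alone 35 (4.21%) and with the length offset 4 (1.74%), DESeq2 4 (1.71%), and leaving out the libraries against their labelled sex from the fit of all groups 6 (1.01%). In iPKR ASV against vehicle batch 1 alone gave 1 (2.07%). In 5xFAD iPKR against 5xFAD TRAP leaving out the libraries against their labelled sex gave 30 (38%). The length offset reversed Sdhb (0.16), Cox5a (0.93), Cox6c (0.52) and Atp5g2 (0.011) in iPKR vehicle against TRAP, and Cox5a (1.13), Cox6c (0.37) and Ndufc2 (0.0046) in 5xFAD iPKR against 5xFAD TRAP. There Ndufs1 (-0.069) and Atp5b (-0.10) reversed without the libraries against their labelled sex, and Atp5b (-0.071) without the 3 neuron-rich libraries.

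With the replicate block, 33 members were called in iPKR vehicle against TRAP (48%) and 45 in 5xFAD iPKR against 5xFAD TRAP (45.2%), and 0 in each other contrast. The pairing correlations elsewhere ran from -0.498 to 0.106, so those numbers were not taken to pair the libraries. Depth limits the isoforms with few counts, such as Cox8b with a highest count of 13.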
